A study of Homo sapiens with 14 samples.

Results

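The genes described here are 10 components and targets of TGF-beta and BMP signalling, measured over long-term culture of a colorectal cancer line and in the same line overexpressing part of TET2. They are the ligands TGFB1 and BMP4, the receptors TGFBR1 and TGFBR2, and the SMAD proteins SMAD3, a signal carrier, and SMAD7, an inhibitor. The others are the target genes TGFBI, ID1, ID2 and ID3. They were matched by gene symbol, which found each of the 10 once among the 36601 genes of the single-cell tables and once among the 60624 genes of the bulk tables. TGF-beta and BMP are secreted factors that bind pairs of type I and type II receptor kinases. The receptors phosphorylate SMAD2 and SMAD3 for TGF-beta, or SMAD1, SMAD5 and SMAD9 for BMP, and these enter the nucleus with the shared partner SMAD4. In normal colon, TGF-beta restrains epithelial growth and BMP acts mainly in the differentiated upper crypt, and colorectal tumours often lose parts of both pathways.

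SW620 is an established colorectal cancer line from a lymph node metastasis, and SW480 is from the primary tumour of the same patient. SW620-TET2CD cells overexpressed the catalytic domain of TET2, an enzyme that oxidizes 5-methylcytosine. Their controls are labelled SW620, and the study's materials describe SW620 cells with a FLAG vector. Both SW620 lines were profiled by single-cell RNA-seq on days 6, 9, 12 and 15. Bulk RNA-seq covered day 6, as unseparated cultures of SW480 and of SW620, and also cells from inside and outside the colonies of SW620 and SW620-TET2CD on day 15, where cells outside had passed a strainer of 70 µm as single cells. Every condition had 1 library, so no condition was replicated, inside and outside cells of a line may come from 1 culture, and the p-values below measure the spread between these libraries only.

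Of 67056 barcodes, 48282 passed the cell limits, with 3894 to 8154 cells and 48186195 to 74185723 UMIs per library. In all, 548 barcodes occurred in 2 or more libraries, and 297 of these among kept cells. Each bulk library summed to between 1.65e+07 and 2.58e+07 expected counts. TET2 lay between 2.11 and 3.90 CPM (a gene's UMIs summed over kept cells and scaled to the library's total) in the 4 SW620 single-cell libraries, and between 40.2 and 107 CPM in the 4 SW620-TET2CD libraries. Of 10 colon epithelial markers, 8 reached 1 CPM in some library, among them EPCAM and CDH1, while KRT20 and CDX1 did not. PTPRC, CD3E, VWF, CDH5, COL3A1 and DCN, which define immune, endothelial and fibroblast cells, stayed under 1 CPM in every library, while PECAM1 and CLDN5 of the endothelial list reached it in some, with a list sum of 0.379 to 2.61 CPM. The summed level of 20 cell cycle genes was 2636 to 2974 CPM on days 6 and 9 and 372 to 755 CPM on days 12 and 15, so it moved with every change over time below. The immune list, through CD68 and LYZ, summed to 7.28 to 17.1 CPM earlier and 23.8 to 57.6 CPM later, and the fibroblast list, through COL1A1 and LUM, to 16.6 to 28.7 and 8.37 to 12.9 CPM. The part of these in the changes over time was not tested, except where cells without cycle UMIs are taken alone below.

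ID1, ID2 and ID3 encode small proteins that bind E-protein transcription factors and keep them off DNA, and they are classical BMP targets. Over time ID1 rose, ID2 fell and ID3 did not pass the test, and the 250 bases before each start site are shown, from RefSeq on GRCh38.p14. A script searched both strands for the SMAD box CAGAC, the GC-rich SMAD element GGCGCC, the CCAAT box CCAAT and the TATA box TATAAA, and matches are in capitals. Matches of TATAAA on the opposite strands of ID1 overlap. The start sites are those of RefSeq, and for ID1 and ID2 that site lies inside the GENCODE gene span given below, which starts further upstream.

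ID1, chr20:31605039-31605288, plus strand:
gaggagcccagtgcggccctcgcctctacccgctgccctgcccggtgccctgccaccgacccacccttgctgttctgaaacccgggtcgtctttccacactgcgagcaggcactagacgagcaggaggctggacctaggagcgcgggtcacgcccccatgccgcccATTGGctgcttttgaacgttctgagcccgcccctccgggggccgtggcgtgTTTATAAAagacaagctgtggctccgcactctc

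ID2, chr2:8681806-8682055, plus strand:
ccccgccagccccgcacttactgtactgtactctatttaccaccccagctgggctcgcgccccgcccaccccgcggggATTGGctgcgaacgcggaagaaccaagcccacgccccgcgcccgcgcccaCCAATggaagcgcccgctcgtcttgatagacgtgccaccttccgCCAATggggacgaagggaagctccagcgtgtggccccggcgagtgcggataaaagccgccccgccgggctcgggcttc

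ID3, chr1:23559502-23559751, minus strand:
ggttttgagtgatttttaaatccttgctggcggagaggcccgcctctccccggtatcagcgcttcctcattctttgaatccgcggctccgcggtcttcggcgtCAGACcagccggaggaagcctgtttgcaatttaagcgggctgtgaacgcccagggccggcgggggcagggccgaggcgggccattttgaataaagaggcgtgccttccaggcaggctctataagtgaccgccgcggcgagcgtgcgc

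The SMAD box occurred 1 time, in ID3, and 38.0% of the 35116 promoter windows in the table hold it. GGCGCC occurred in none of the 3 windows and in 16.4% of all. The CCAAT box occurred 1 time in ID1 and 3 times in ID2, against 32.0% of all windows with at least 1, and the TATA box only in ID1 of the 3, against 10.7% of all. These are letter matches in short windows and were not tested as binding sites.

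The first comparison asked how the genes changed as culture went on. On days 12 and 15, compared with days 6 and 9, BMP4 and ID2 fell, by 1.84-fold and 2.15-fold, while TGFB1, TGFBR2, SMAD3, TGFBI and ID1 rose between 1.40-fold and 1.70-fold. TGFBR1, SMAD7 and ID3 did not pass the test. So 7 of the 10 passed (edgeR's quasi-likelihood test with the line as a block, adjusted p under 0.05), 5 upward and 2 downward. Among all 16993 genes tested, 57.7% passed, 29.4% upward and 28.3% downward, so the count for the 10 is near that of genes in general. Their median absolute log2 change was 0.59, against 0.56 over all genes tested.

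TGFB1 encodes the main TGF-beta ligand and lies on chromosome 19 (41301587 to 41353922). Over days 6, 9, 12 and 15 its level was 30.7, 38.2, 51.9 and 62.7 CPM in SW620. The SW620-TET2CD libraries gave 30.6, 32.1, 44.4 and 52.6 CPM. All 4 later libraries lay above all 4 earlier ones, and the log2 change was 0.57 ± 0.13 (SE, edgeR adjusted p = 0.00383). BMP4, a BMP ligand on chromosome 14 (53949736 to 53958761), went the opposite way. Its level was 177, 153, 94.7 and 90.9 CPM in SW620. The SW620-TET2CD libraries gave 187, 154, 109 and 100.1 CPM. The earlier and later libraries did not overlap, and the log2 change was -0.88 ± 0.12 (edgeR adjusted p = 0.000182). The 2 lines were close at every day, with SW620-TET2CD at 1.06, 1.01, 1.15 and 1.10 times SW620.

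TGFBR2, the type II receptor that binds TGF-beta first (chromosome 3, 30606601 to 30694142), stood at 27.7, 29.8, 43.9 and 47.4 CPM in SW620 over the 4 days. SW620-TET2CD had 25.6, 32.1, 33.3 and 49.8 CPM. The groups did not overlap, but 33.3 CPM on day 12 lay just above the highest earlier value. Its log2 change was 0.48 ± 0.14 (edgeR adjusted p = 0.0128), and without the SW620 library of day 6 the log2 change was 0.43 and the adjusted p 0.0529. In bulk RNA of SW620, with 1 library each, TGFBR2 on day 15 was at 0.667 (inside colonies) and 0.708 (outside) times day 6, the opposite direction. TGFBR1, the type I kinase that TGFBR2 recruits (chromosome 9, 99104038 to 99154192), stayed between 5.54 and 8.78 CPM and its groups overlapped (log2 change -0.021 ± 0.12, edgeR adjusted p = 0.896).

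SMAD3, which carries the TGF-beta signal to the nucleus (chromosome 15, 67063763 to 67195173), stood at 14.5, 16.6, 21.8 and 32.8 CPM in SW620. SW620-TET2CD had 14.5, 16.7, 22.1 and 37.9 CPM. Up to day 12 the lines gave nearly the same values, and the highest levels were on day 15 in both. The log2 change between later and earlier days was 0.77 ± 0.19 (edgeR adjusted p = 0.00506). SMAD7, an inhibitory SMAD that blocks the receptors and is itself induced by the pathway (chromosome 18, 48919853 to 48950965), stayed between 3.86 and 5.40 CPM, with a log2 change of -0.096 ± 0.14 (edgeR adjusted p = 0.580). With upper-quartile factors in place of TMM the median of all genes moved from 0.039 to 0.21, the share of calls that were upward went from 51.0% to 63.4%, and the signs of TGFBR1 and SMAD7 turned.

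TGFBI, an extracellular matrix protein named for its induction by TGF-beta (chromosome 5, 136028988 to 136063818), peaked on day 12 in both lines. It stood at 41.2, 49.5, 89.1 and 61.1 CPM in SW620. The level in SW620-TET2CD was 38.9, 55.9, 85.3 and 71.0 CPM. The log2 change was 0.61 ± 0.15 (edgeR adjusted p = 0.00550). Among kept cells with no UMI of the 20 cell cycle genes, TGFBI was at 75.9 to 94.6 CPM on days 6 and 9 and at 64.3 to 106 CPM on days 12 and 15, and its log2 change was 0.034 (edgeR adjusted p = 0.918). Such cells made up 0.937% to 5.95% of the earlier libraries, 52 cells in SW620 on day 6, and 22.8% to 47.4% of the later ones, and having no such UMI also depends on a cell's depth. TGFBR2 also missed the threshold in them (log2 change 0.35, edgeR adjusted p = 0.147), while TGFB1, BMP4, SMAD3, ID1 and ID2 passed. SMAD3 rested on 9 to 38 UMIs in each earlier library of these cells. Its earlier and later levels there overlapped, at 19.1 to 26.0 and 25.8 to 46.5 CPM. Those of ID1 overlapped too, at 116 to 205 and 186 to 273 CPM, as did those of ID2, at 40.7 to 76.8 and 13.0 to 41.4 CPM. TGFB1 rested on 14 to 82 UMIs and ID2 on 24 to 88 UMIs in each earlier library of these cells. ID3 held between 0 and 5 UMIs in each earlier library of these cells, so that its fitted change there (1.58, edgeR adjusted p = 0.0983) depends on the prior count.

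ID1 (chromosome 20, 31605283 to 31606515) and ID2 (chromosome 2, 8678845 to 8684461) parted. ID1 stood at 132, 147, 267 and 239.6 CPM in SW620. In SW620-TET2CD it stood at 96.2, 147, 218 and 176 CPM. The later libraries all lay above the earlier ones, with the peak on day 12 in both lines (log2 change 0.67 ± 0.15, edgeR adjusted p = 0.00343). In bulk RNA of SW620 it went the opposite way, where day 15 was at 0.834 (inside colonies) and 0.908 (outside) times day 6. ID2 stood at 67.7, 46.6, 40.5 and 14.9 CPM in SW620. The level in SW620-TET2CD was 74.9, 71.6, 49.5 and 28.0 CPM. It went down at each step in both lines, 4.53-fold between days 6 and 15 in SW620 and 2.67-fold in SW620-TET2CD, although 49.5 CPM on day 12 lay above the lowest earlier value. Its log2 change was -1.10 ± 0.27 (edgeR adjusted p = 0.00555). ID3 (chromosome 1, 23557926 to 23559501) was low, between 3.16 and 5.23 CPM, and its change of 0.25 ± 0.15 did not pass (edgeR adjusted p = 0.165). In all, 6 of the 10 genes had earlier and later levels that did not overlap, against 51.9% of all genes tested.

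**Figure D1:**
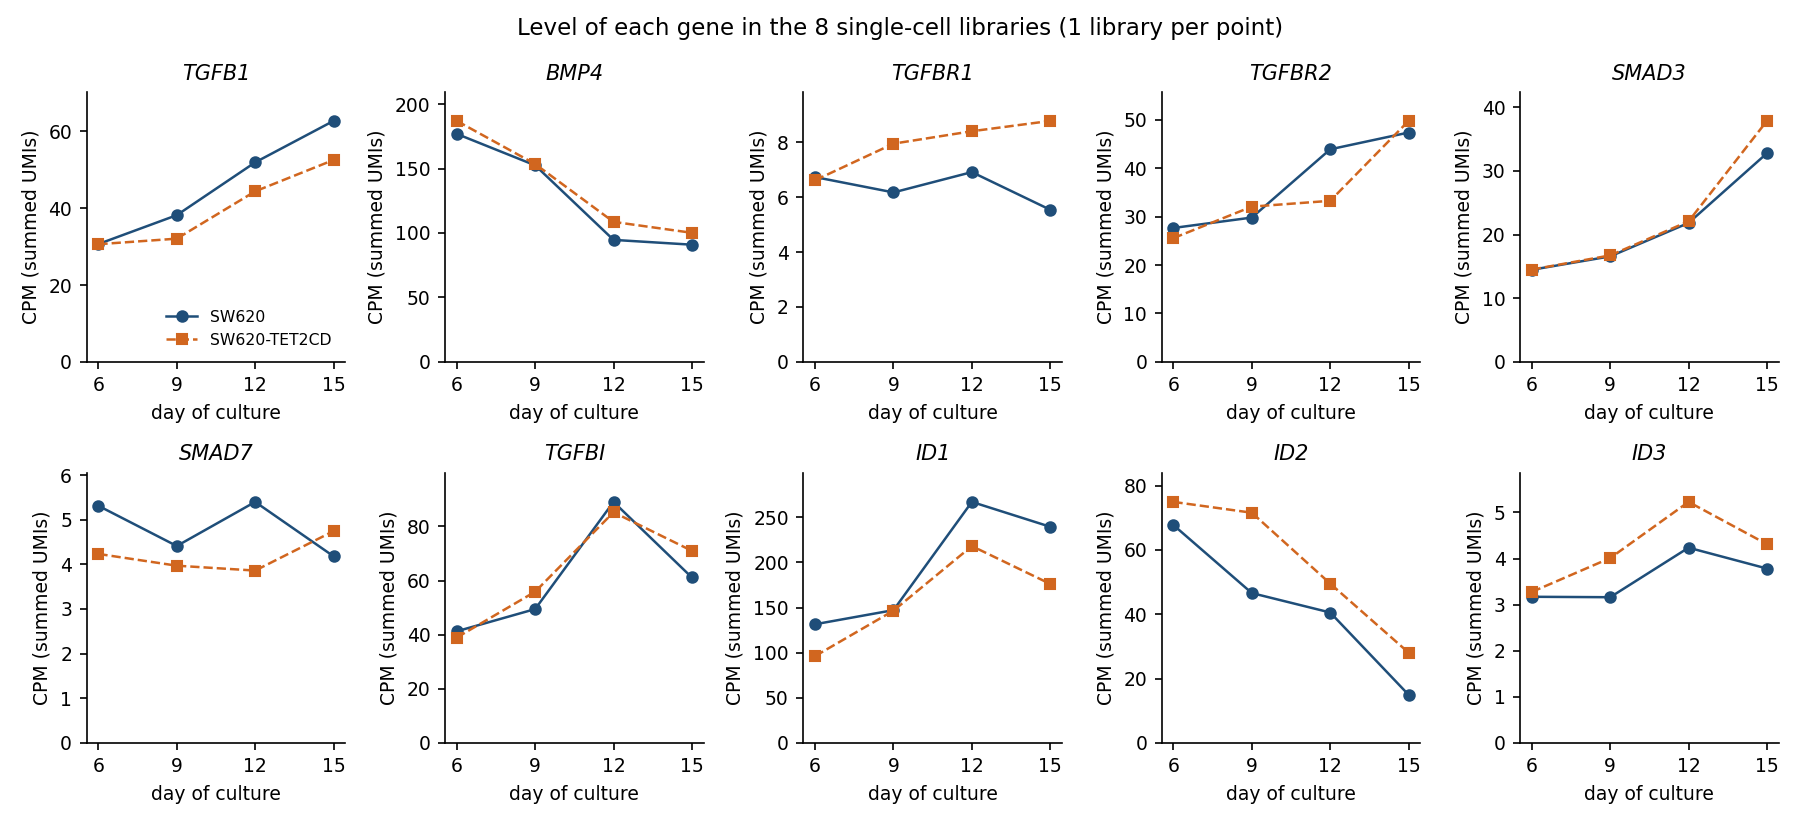
The level of each gene in CPM (linear axis from 0) against the day of culture, with 1 library per point, circles for SW620 and squares for SW620-TET2CD. BMP4 and ID2 are lower on days 12 and 15, TGFB1, TGFBR2, SMAD3, TGFBI and ID1 are higher, and TGFBI and ID1 peak on day 12 in both lines.

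In SW620 an ID2 UMI was found in 51.5% of 5547 cells on day 6 (exact 95% binomial interval 50.2 to 52.9), in 26.3% on day 9, in 33.8% on day 12 and in 9.59% of 6913 cells on day 15 (8.91 to 10.3). In SW620-TET2CD the shares were 43.1%, 47.2%, 37.8% and 17.8%. These shares moved with the depth of the cells too, since the median SW620 cell held 13479, 6640, 13111 and 7127 UMIs, and they went up between days 9 and 12 in SW620 and between days 6 and 9 in SW620-TET2CD while the level went down. With each cell thinned to 2000 UMIs the share was 12.2%, 8.71%, 7.42% and 3.02% over the 4 days in SW620. The thinned share in SW620-TET2CD was 13.6%, 13.1%, 9.16% and 4.69%. For ID1 the thinned share was 21.2%, 24.4%, 36.7% and 32.3% in SW620 and 16.3%, 23.9%, 30.6% and 25.8% in SW620-TET2CD. The intervals cover counting error only, and since each library holds 1 line, no cells that should lack these genes gave a level for free RNA.

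Other genes of the pathway were read from a list of 88, of which 72 could be tested over time. Of these, 39 rose, 9 fell and 24 did not pass, with a median log2 change of 0.58 against 0.039 over all genes tested. Of all genes tested, 29.4% rose and 28.3% fell. The list was chosen with earlier results of these data known. Among other receptors 9 of 11 tested rose and none fell, and of other ligands 4 of 11 rose and 2 fell. Of the other SMADs 1 of 5 rose and 1 fell, and of the inhibitors 7 of 14 rose and 2 fell. Of the genes that control the latent ligand 6 of 9 rose and 1 fell, and of 22 other targets 12 rose and 3 fell. CDKN2B, an inhibitor of CDK4 and CDK6 and a TGF-beta target, rose furthest among those at 8 CPM or more. It stood at 3.82, 8.27, 24.4 and 78.4 CPM in SW620 and at 5.54, 8.99, 23.1 and 72.2 CPM in SW620-TET2CD (log2 change 2.80 ± 0.46, edgeR adjusted p = 0.000514). BHLHE40, a transcription factor, rose 4.38-fold. BMP7, a second BMP ligand, fell as BMP4 did (log2 change -0.92 ± 0.13). FKBP1A, which holds type I receptors inactive, fell by 0.77 ± 0.15, and BAMBI, a decoy receptor, fell by 0.63 ± 0.17 on the log2 scale. SMAD4, singled out here after its values had been seen, was at 0.257 to 0.568 CPM in the single-cell libraries and at 0.450 to 1.13 TPM in bulk. SMAD2 was at 17.9 to 29.7 CPM.

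The second comparison was SW620-TET2CD against SW620 over the 4 days, with the day as a block. None of the 10 genes passed (edgeR), against 4.32% of 17478 genes tested, and 4 had an unadjusted p under 0.05 (TGFB1, SMAD7, ID1 and ID2), as had 2595 of all 17478. ID2 was higher in SW620-TET2CD on 4 of 4 days, at 1.11, 1.54, 1.22 and 1.88 times SW620 (log2 difference 0.38 ± 0.10, edgeR adjusted p = 0.0683). ID1 was lower on days 6, 12 and 15 and level on day 9, at 0.732, 0.996, 0.817 and 0.736 times SW620 (log2 difference -0.40 ± 0.12, edgeR adjusted p = 0.103). Both passed with DESeq2 (adjusted p = 0.0377 for ID2 and 0.0269 for ID1) and with no filter on low counts (0.0167 and 0.0110), and ID2 also passed with upper-quartile factors (0.0437) and every barcode (0.0280). Over all alternatives and libraries left out the adjusted p lay between 0.0167 and 1 for ID2 and between 0.0110 and 1 for ID1. TGFB1 was at 0.998, 0.840, 0.855 and 0.838 times SW620 (log2 difference -0.29 ± 0.10, edgeR adjusted p = 0.175). The ratios are of plain CPM, while the fits use TMM factors, and so the log2 differences sit lower than the ratios. On day 15 these factors were 0.929 for SW620 and 1.14 for SW620-TET2CD. In plain CPM BMP4, SMAD3 and ID3 were also higher on 4 of 4 days, with fitted log2 differences of 9.83e-05, -0.047 and 0.11.

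Of 73 other pathway genes tested between the lines, 4 were higher and 8 lower in SW620-TET2CD, against 2.48% and 1.84% of all genes tested. Among the lower genes were MSX2, a homeobox BMP target, with a log2 difference of -0.73 ± 0.12, and GDF15, a stress-induced ligand of the family, with -0.56 ± 0.13 (edgeR adjusted p = 0.00373 and 0.0371). In bulk RNA of day 15 their log2 differences between the lines were -0.47 ± 0.19 and 0.19 ± 0.18, and neither passed (edgeR). No gene that was higher reached 8 CPM. Whether the change over time differed between the lines was tested as an interaction of line with later against earlier days. No day block was used, so the days of a period stood in for replicates and shared day differences stayed in the spread. Again none of the 10 passed, nor did any of 17478 genes (0.0%, edgeR), and DESeq2 called none. The lack of calls therefore does not show that the lines changed alike. At an unadjusted p under 0.05 edgeR counted 141 genes and none of the 10, whose interaction terms lay between -0.26 and 0.19.

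**Figure D2:**
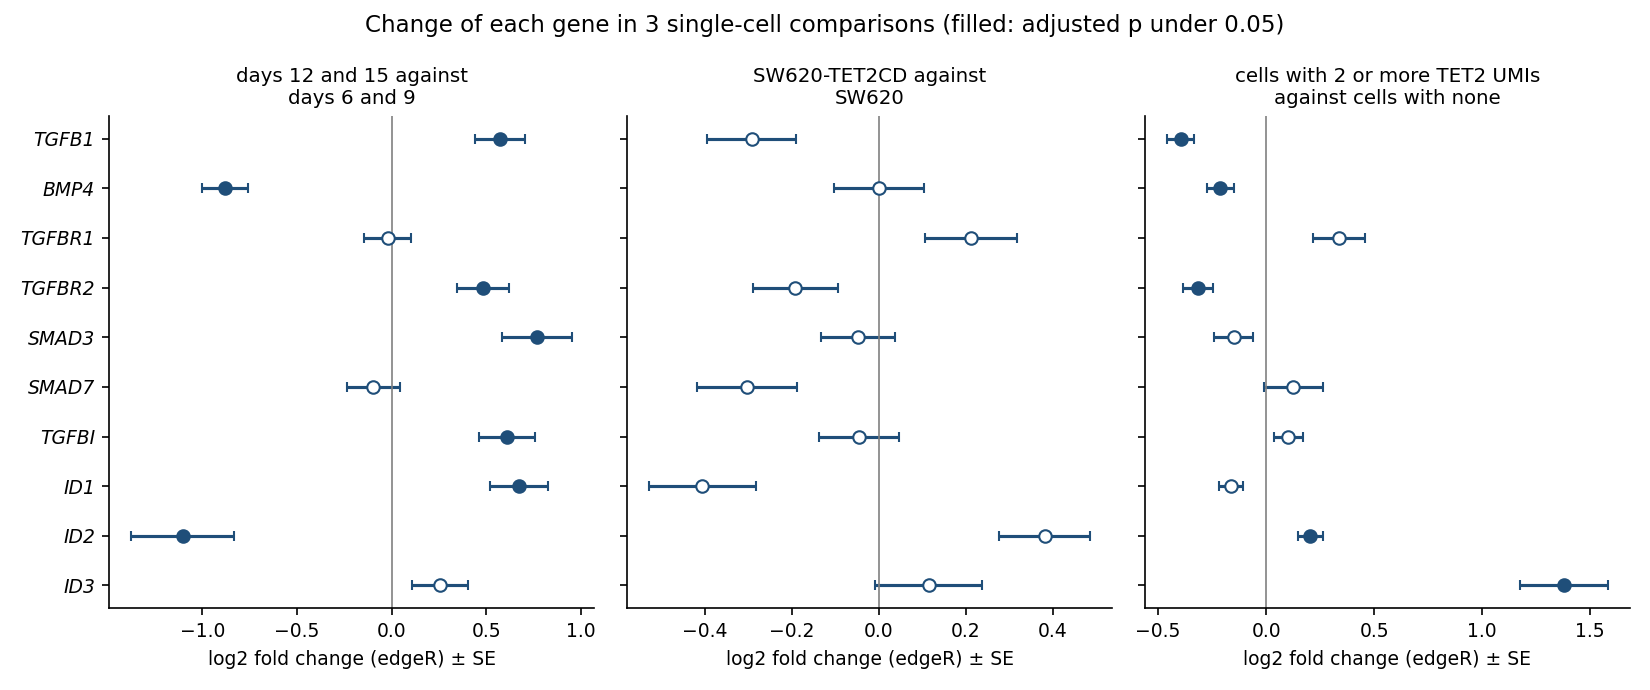
The edgeR log2 fold change of each gene (x axis, bars are 1 SE) in 3 single-cell comparisons, with filled circles for an adjusted p under 0.05. Between later and earlier days 7 of the 10 genes pass, between the lines none, and in the cells with TET2 UMIs ID3 stands furthest from 0, at 1.38.

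Within the SW620-TET2CD libraries, TET2 UMIs were unevenly spread over cells. Cells with 2 or more TET2 UMIs numbered 1501, 935, 418 and 430 on days 6, 9, 12 and 15, and cells with none 5880, 4895, 3131 and 4874. Comparing these cells day by day asked whether the genes moved with the TET2 transcript inside 1 culture. ID3 was 2.60-fold higher in the cells with TET2 UMIs, ID2 was 1.15-fold higher, and TGFB1, TGFBR2 and BMP4 were lower by 1.32-fold, 1.24-fold and 1.16-fold. These folds are of the fit with TMM factors, and they sit lower than the plain CPM ratios, which were 1.26, 1.32, 1.16 and 1.31 for ID2 and 0.799, 0.822, 0.875 and 0.836 for TGFB1 on the 4 days. So 5 of the 10 genes passed (edgeR, the day as a block), 2 upward and 3 downward, against 20.2% of 16396 genes tested, 8.52% upward and 11.7% downward.

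ID3 stood at 5.55, 7.47, 16.7 and 8.57 CPM in the cells with TET2 UMIs on the 4 days, and at 2.73, 3.19, 3.11 and 3.39 CPM in the cells without. It was higher on every day, by 2.03-fold to 5.39-fold, with the widest gap on day 12 (log2 difference 1.38 ± 0.20, edgeR adjusted p = 0.000465). These values rest on 84, 86, 95 and 40 ID3 UMIs in the cells with TET2. On day 12, 49 of 418 of them held an ID3 UMI (11.7%, exact 95% interval 8.80 to 15.2) against 104 of 3131 cells without TET2 (3.32%, 2.72 to 4.01). Among the 418 cells, the cell with most held 9 ID3 UMIs. The cells with TET2 UMIs were deeper, with median UMIs of 9599, 12217, 13717 and 10587 against 8405, 10991, 12218 and 8042. With each cell thinned to 2000 UMIs ID3 still passed, on 17, 17, 15 and 8 UMIs, and it passed in each other alternative, days left out included (edgeR or DESeq2 adjusted p between 3.17e-21 and 0.00107).

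TGFB1 stood at 25.6, 27.7, 40.0 and 44.4 CPM in the cells with TET2 UMIs and at 32.0, 33.7, 45.7 and 53.0 CPM in those without, so it was lower on 4 of 4 days (log2 difference -0.40 ± 0.063, edgeR adjusted p = 0.000827). ID2 was higher on 4 of 4 days, at 87.7, 88.2, 55.1 and 35.6 CPM against 69.8, 66.7, 47.6 and 27.2 CPM (log2 difference 0.20 ± 0.058, edgeR adjusted p = 0.0253). Its adjusted p was 0.537 when 5 or more TET2 UMIs were asked for, 0.0590 without day 6 and 0.195 without day 9. TGFBR2 was lower on 4 of 4 days, at 0.983, 0.884, 0.867 and 0.771 times its level in cells without TET2 (log2 difference -0.32 ± 0.070, edgeR adjusted p = 0.00672), and its adjusted p was 0.138 after thinning (log2 difference -0.30), 0.0721 without day 12 (-0.28) and 0.0624 without day 15 (-0.20). BMP4 went both ways, at 1.11, 0.934, 0.813 and 0.912 times (log2 difference -0.21 ± 0.062, edgeR adjusted p = 0.0304), and lost its call after thinning (adjusted p = 0.788), with DESeq2 (0.117), with upper-quartile factors (0.106) and without day 9, 12 or 15 (adjusted p between 0.131 and 0.333). The summed level of the cell cycle genes was close between the cells on days 6, 9 and 12 and was 751 CPM against 507 CPM on day 15. With upper-quartile factors the share of all calls that were upward went from 42.2% to 55.3%, and with DESeq2 it was 54.0%. TGFBR1, SMAD7 and TGFBI were also higher on 4 of 4 days in plain CPM, and did not pass.

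Among 71 other pathway genes tested between these cells, 13 were higher and 13 lower, against 8.52% and 11.7% of all genes tested. BMP7 had the widest difference of those at 8 CPM or more, -1.12 ± 0.11 on the log2 scale (edgeR adjusted p = 1.86e-05). CDKN2B had a log2 difference of -0.58 ± 0.17 (edgeR adjusted p = 0.0286). LTBP3, which anchors the latent ligand in the matrix, was higher by 1.51-fold (edgeR adjusted p = 0.0253). SMURF2, a ligase that degrades receptors and SMADs, was higher by 1.24-fold, and MSX1, a homeobox BMP target, by 1.23-fold (edgeR adjusted p = 0.0286 and 0.0102). For these other pathway genes the alternative settings were not examined.

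**Figure D3:**
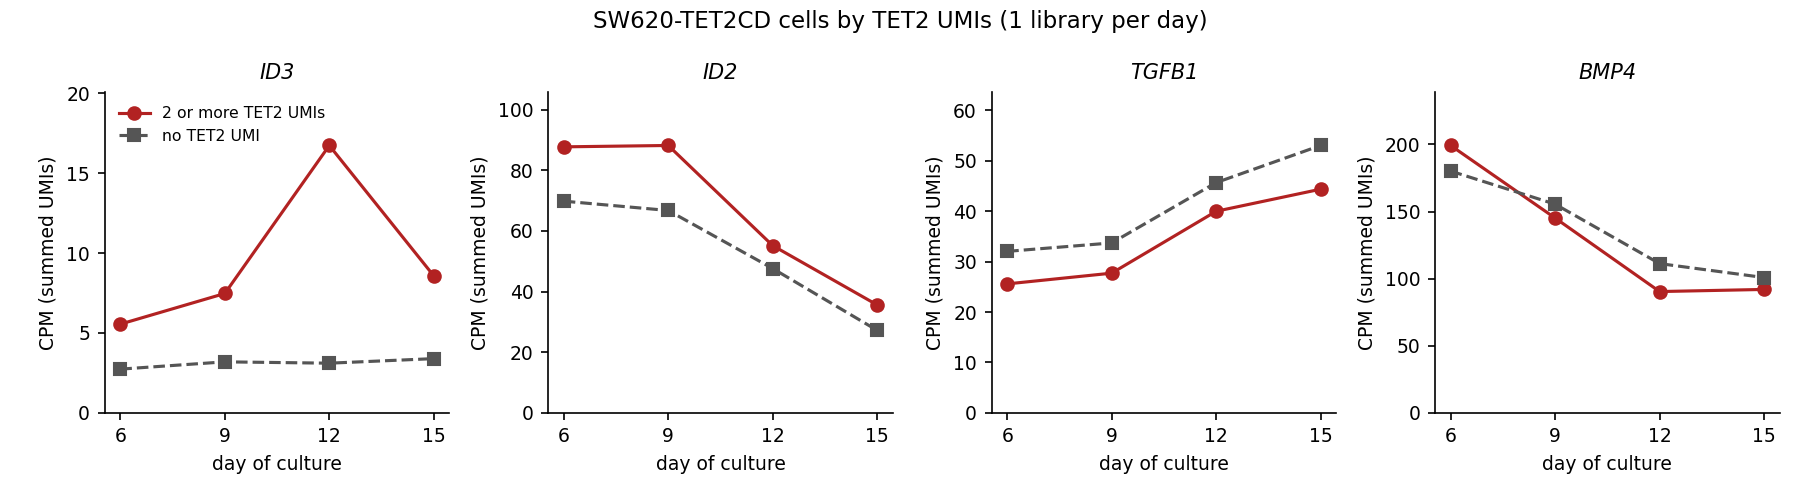
The level of ID3, ID2, TGFB1 and BMP4 in CPM (linear axis from 0) on each day in SW620-TET2CD cells with 2 or more TET2 UMIs (circles) and with none (squares), 1 library per day. ID3 and ID2 are higher and TGFB1 lower in the cells with TET2 UMIs on 4 of 4 days, and the BMP4 lines cross after day 6.

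The bulk libraries of day 15 compared cells outside with cells inside the colonies. In the study's method, cells inside were digested further with trypsin after the strainer, so location and handling cannot be told apart. None of the 10 genes passed, nor did any of 17722 genes (0.0%; edgeR with the line as a block, 1 residual degree of freedom), while 1068 genes had an unadjusted p under 0.05 and DESeq2 called 22. In bulk RNA, fewer cells that express a gene and less RNA per cell cannot be told apart. TGFBI was the member with the widest difference. It was at 141 TPM (a share of all transcripts, scaled for gene length) inside and 99.5 TPM outside in SW620, and at 169 and 82.0 TPM in SW620-TET2CD. Both lines were lower outside, by 1.42-fold and 2.07-fold (log2 difference -0.80 ± 0.17, edgeR adjusted p = 0.772), and DESeq2 called it (adjusted p = 0.0261). ID2 was also lower outside in both lines, at 30.3 against 36.3 TPM and at 32.1 against 46.6 TPM (log2 difference -0.42 ± 0.15, edgeR adjusted p = 0.772). ID1 was at 85.8 and 93.5 TPM inside and outside in SW620 and at 99.3 and 109 TPM in SW620-TET2CD. The cell cycle genes summed to 274 to 558 TPM inside and 557 to 709 TPM outside. The endothelial markers totalled up to 30.7 TPM in the outside libraries, mostly CLDN5 in SW620-TET2CD, while CDH5 and KDR were near 0, and TET2 itself was at 38.1 TPM inside and 124 TPM outside in that line. The part of these in the differences was not tested.

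In the same libraries none of the 10 differed between the lines by edgeR, against 0.412% of genes tested, and 3 had an unadjusted p under 0.05 (TGFB1, BMP4 and TGFBR1), as had 3536 of all 17722. Of all calls 69.9% were higher in SW620-TET2CD, against 57.9% with upper-quartile factors, 49.0% with DESeq2, 47.1% with no filter and 37.5% without the block. TGFBR1 stood at 4.35 and 6.12 TPM inside and outside in SW620 and at 8.78 and 11.4 TPM in SW620-TET2CD. The log2 difference was 0.81 ± 0.13 (edgeR adjusted p = 0.0807, DESeq2 adjusted p = 0.0468). In the single-cell libraries TGFBR1 was at 0.983, 1.29, 1.22 and 1.58 times SW620 on days 6, 9, 12 and 15 (plain CPM). The fit over the 4 days gave a log2 difference of 0.21 ± 0.11 (edgeR adjusted p = 0.397). ID1, lower in SW620-TET2CD single cells on day 15, was at 1.16 and 1.17 times SW620 in the inside and outside bulk libraries. BMP4, at 1.10 times SW620 in single cells on day 15, was at 0.781 and 0.817 times SW620 in the inside and outside bulk libraries.

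The whole cultures of day 6 gave levels that can be set side by side between genes. In SW620 the order was BMP4 at 169 TPM, ID1 at 103, ID2 at 94.5, TGFBI at 76.3, TGFB1 at 49.3, TGFBR2 at 49.0, SMAD3 at 12.7, TGFBR1 at 7.75, ID3 at 3.36 and SMAD7 at 3.18 TPM. With 1 library the spread between cultures is unknown. Neighbours with close values, such as ID1 and ID2, TGFB1 and TGFBR2, or ID3 and SMAD7, cannot be ranked against each other. SW480 had another order, with ID2 first at 562 TPM and ID1 at 8.73 TPM. Between SW480 and SW620, 6 of the 10 differed over 2-fold on log2(TPM + 1), against 27.5% of 17150 genes with over 1 TPM in either. ID2, SMAD7 and TGFBR1 were higher in SW480, by 5.95-fold, 6.18-fold and 3.48-fold. ID1, TGFBR2 and BMP4 were higher in SW620, by 11.8-fold, 4.78-fold and 2.05-fold. No test is possible between single libraries. The bulk kit did not mark strand, so reads of ID2 and its antisense neighbour ID2-AS1 cannot be told apart there. TGFB1, BMP4 and SMAD3 also lie over annotated genes, and TGFBR1 and TGFBR2 over pseudogenes, on the opposite strand. TGFB1 overlaps a long non-coding RNA gene on its own strand too.

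**Figure D4:**
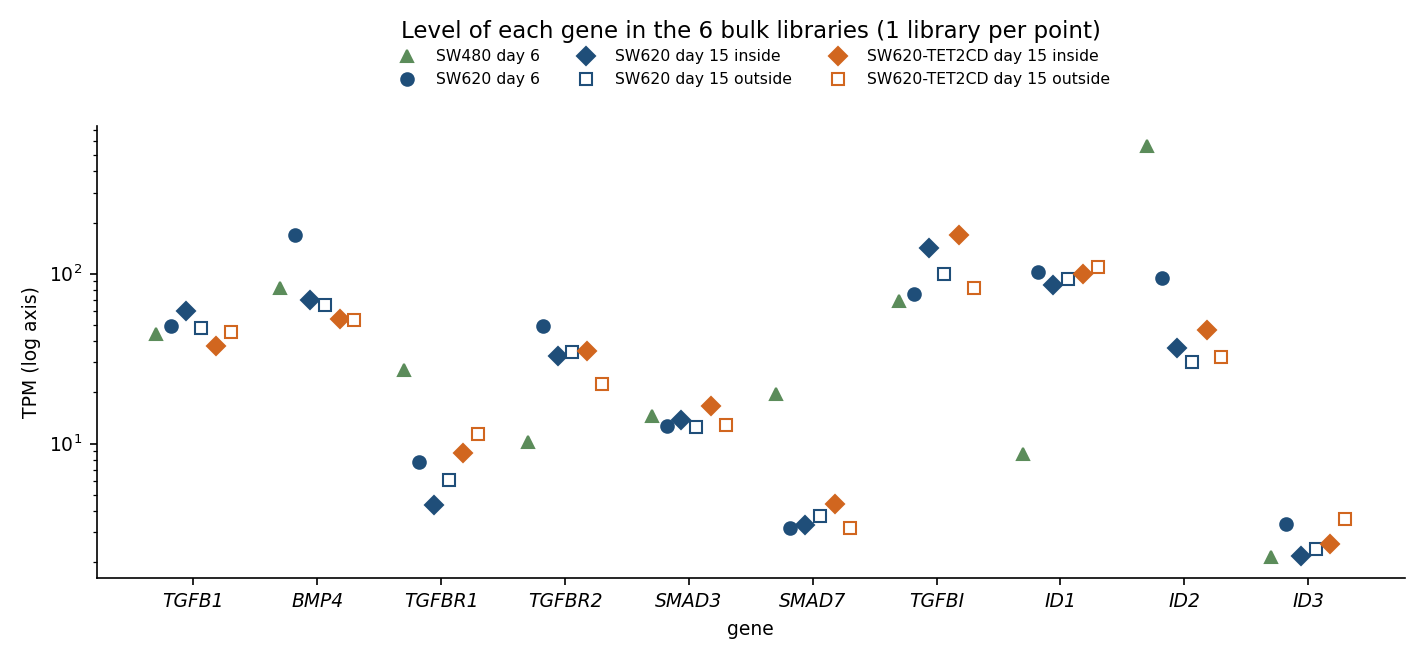
The level of each gene in TPM (log axis) in the 6 bulk libraries, with triangles for SW480, circles for SW620 on day 6, filled diamonds for cells inside and open squares for cells outside the colonies on day 15. ID1, TGFBR2 and BMP4 are lower and ID2, SMAD7 and TGFBR1 higher in SW480 than in SW620, and TGFBI is higher inside than outside in both lines.

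For each member with a mean of 8 CPM or more, the gene of the most similar profile was sought among 8716 candidates by Pearson's r of log2(CPM + 1) over the 8 single-cell libraries. These were NTSR1 for TGFB1, NOC2L for BMP4, IL13RA1 for TGFBR2, COX19 for SMAD3, NPDC1 for TGFBI, CEBPD for ID1 and PRMT6 for ID2. The r lay between 0.985, for ID1, and 0.999, for BMP4. The points share days, depth and lines, and the best of so many candidates is high by selection, so these values only describe the profiles.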

How the data were processed

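Single-cell libraries had been aligned to the 10x Genomics GRCh38 reference with Cell Ranger 4.0, and the authors deposited UMI counts per gene and barcode. For bulk RNA the authors deposited RSEM expected counts and TPM. The submitters' notes name Bowtie and, for these tables, mm10, although the gene identifiers are human. For the bulk tables, the sources used here do not name the annotation release. A cell was kept with 1000 to 20000 UMIs over 200 to 4500 genes, where mitochondrial transcripts gave no more than 10% of UMIs. Doublets were not called. UMIs were summed per library (CPM) and tested with edgeR 4.0.16 (filterByExpr, TMM, quasi-likelihood, two-sided), with DESeq2 1.42.0 as an alternative, in R 4.3.3. P-values were adjusted by Benjamini-Hochberg over all genes tested, with a threshold of 0.05. Expected counts were rounded, and 45 Y copies of pseudoautosomal genes were left out. SE is the absolute log2 change over the root of F. The scripts were tested on simulated data. Gene positions are those of GENCODE release 44. Thinning drew 2000 UMIs per cell without replacement, leaving out shallower cells.

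The members, the pathway and marker lists and the tests were chosen with earlier results of these data known. All 10 members are named. Of other pathway genes, up to 3 rises and 3 falls per single-cell comparison are named, among those past the threshold with a mean of at least 8 CPM; 1 gene that this names is not reported here. Alternatives were DESeq2, no filter on low counts, upper-quartile factors, every barcode, a mitochondrial limit of 20%, only cells with no cycle UMI, no block, 5 or more TET2 UMIs, thinned cells, a pseudocount of 0.1 and each library left out in turn. A level of 3 UMIs, the floor, is 0.0404 to 0.0623 CPM.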

Additional observations from a re-analysis of the deposited data

Results flagged for a closer look

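TGFB1, TGFBR2 and SMAD7 went opposite ways outside against inside the colonies of the 2 lines, in TPM. The outside to inside ratio was 0.792 in SW620 and 1.21 in SW620-TET2CD for TGFB1, a gap of 0.62 on the log2 scale. For TGFBR2 the ratios were 1.06 and 0.642 (a gap of -0.73), and for SMAD7 they were 1.13 and 0.723 (a gap of -0.64). Each ratio rests on 1 library per side, so the difference was not tested.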

How the results depend on the processing

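Over time, the number of the 10 genes that passed was 7 and lay between 5 and 8 under the alternatives, and all 7 kept their direction in each of them. Among cells with no cycle UMI, 3078 of all genes passed against 9808. The sign of TGFBR1 turned there (0.27), with upper-quartile factors (0.15, and 0.077 for SMAD7) and without 1 library (-0.089 to 0.021 over the 8). ID3 passed with upper-quartile factors.

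Between the lines none of the 10 passed. DESeq2 and no filter called 2 (ID1 and ID2), and upper-quartile factors and every barcode called 1 (ID2). Of all genes 755 passed, 1489 with no filter, 277 in cells with no cycle UMI, 46 without the block and 440 to 774 without 1 library (440 and 458 without the SW620 and SW620-TET2CD library of day 9). The BMP4 difference, near 0, turned to -0.0032 with DESeq2, -0.011 with no filter, and lay between -0.064 and 0.062 without 1 library. SMAD3 turned to 0.11 and ID3 to -0.12 in cells with no cycle UMI. For the interaction, no filter called 15 genes, none of them a member.

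In bulk, DESeq2 and no filter called 22 and 472 genes outside against inside, TGFBI the 1 member in each. Between the lines they called 710 and 2239 genes against 73, with 1 and 2 members (TGFBR1, and TGFB1 with no filter). Upper-quartile factors called 178 and no block 8, and TGFBI turned to 0.030 without the block. Leaving out 1 bulk library left no residual degrees of freedom, so only values were had.

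In cells with TET2 UMIs, 5 of the 10 genes passed, 7 with no filter (TGFBR1 and ID1 added), 6 with the mitochondrial limit of 20% (ID1 added), 5 with upper-quartile factors (TGFBR1 in place of BMP4), 4 with DESeq2 or 5 or more TET2 UMIs and 3 (TGFB1, ID2 and ID3) after thinning, with 1181 of all genes against 3309. Without 1 library 3 to 5 passed (3 without day 9, 12 or 15) and 1821 to 2818 of all genes. TGFBI turned to -0.054 with 5 or more TET2 UMIs and SMAD7 to -0.28 after thinning. TGFBR1 also passed without day 6, in place of ID2. The causes were not tested.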

Other observations

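SW620 was also measured in bulk on day 6 as a whole culture and on day 15 inside and outside the colonies, 1 library each and prepared differently, so the values stand side by side without a test. BMP4 was at 169 TPM on day 6 and at 69.7 and 65.2 TPM on day 15. ID2 was at 94.5 TPM and then at 36.3 and 30.3 TPM. TGFBI was at 76.3 TPM and then at 141 and 99.5 TPM. TGFBR1 was at 7.75 TPM and then at 4.35 and 6.12 TPM. Both day-15 TPM values of these 4 genes lay on the side of day 6 that the single-cell libraries of SW620 gave. Those of the other 6 genes did not. For SMAD3 this depended on the length scaling of TPM. It held 774 of 1.65e+07 expected counts on day 6. On day 15 it held 1492 of 2.52e+07 inside and 1213 of 2.29e+07 outside, a larger share in both. ID3 rested on 34 expected counts in each of these SW620 libraries. TGFB1 was at 49.3 TPM and then at 60.4 and 47.9 TPM, and SMAD3 at 12.7 TPM and then at 13.7 and 12.6 TPM, whereas in single cells they were 2.04-fold and 2.27-fold higher on day 15 than on day 6. SMAD7 was at 3.18 TPM and then at 3.33 and 3.76 TPM, and ID3 at 3.36 TPM and then at 2.19 and 2.40 TPM, while in single cells day 15 was at 0.787 and 1.19 times day 6. TGFBR2 was at 49.0 TPM on day 6 and at 32.7 and 34.7 TPM on day 15, and ID1 was at 103 TPM and then at 85.8 and 93.5 TPM, whereas both were higher on day 15 than on day 6 in single cells (1.71-fold and 1.82-fold in SW620).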
